A study of Mus musculus with 6 samples.

Results

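The 80 genes described here encode proteins of the cytosolic ribosome, the particle that translates messenger RNA into protein. They were chosen by symbol alone, as every gene named Rpl or Rps plus a number, with or without a final a, x, l or y, together with *Rplp0*, *Rplp1*, *Rplp2* and *Rpsa*. They are 80 of the 32286 genes counted, 49 of the large subunit and 31 of the small subunit, and no measured value entered the choice. The data are single nuclei RNA sequencing of whole cerebella from 3 *Pcp2-ATXN1[82Q]* mice (SCA1 mice), a model of spinocerebellar ataxia type 1, and 3 wild-type (WT) littermates, all 12 weeks old, with 1 library per mouse. The transgene of the SCA1 mice is a human *ATXN1* copy whose CAG tract is expanded, and its *Pcp2* promoter drives it in Purkinje cells (PCs) and not in the other cells described here. Nuclei were freed from fresh or frozen tissue with a detergent buffer, and which cerebella had been frozen is not given in the sources used here. Every captured transcript carried a unique molecular identifier (UMI), and values below are counts of UMIs on exons and introns.

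Each ribosome is built from a small subunit, which reads the message, and a large subunit, which joins the amino acids, and these proteins hold the ribosomal RNA of both in shape. Their messages belong to the most abundant in the cytoplasm of any cell, so that in a nucleus preparation they are found both as RNA made in that nucleus and as RNA of cytoplasm that came along, attached to the nucleus or free in the droplet. Many begin with a run of pyrimidines (C and T) at the start of transcription, the 5' terminal oligopyrimidine tract, through which mTOR signaling sets their translation in a group.

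The RefSeq starts of 8 members differ in how long a run of C and T lies around them. The 30 bases below run 5' to 3' on the strand of the gene, 15 before and 15 from the RefSeq start (GRCm38.p6), with the longest unbroken run of C and T in capitals. *Rpl15* is the gene with the largest surplus in PCs, and the other 7 are among the 10 members with most UMIs.
Rpl15: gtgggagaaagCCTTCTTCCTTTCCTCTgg
Rpl27a: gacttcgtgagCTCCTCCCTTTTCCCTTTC
Rpl38: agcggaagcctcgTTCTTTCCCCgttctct
Rpl13: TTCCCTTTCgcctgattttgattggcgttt
Rps24: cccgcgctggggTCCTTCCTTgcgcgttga
Rps21: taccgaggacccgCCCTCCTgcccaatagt
Rpl37: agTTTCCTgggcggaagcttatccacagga
Rpl37a: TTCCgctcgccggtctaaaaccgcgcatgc
*Rps24* and *Rps21* have 2 listed starts each, of which 1 is shown. The window of *Rpl15* lies at chr14:18270972-18271001 on the minus strand and holds a run of 17 pyrimidines. That of *Rpl27a*, at chr7:109519180-109519209 on the plus strand, holds a run of 19, while that of *Rpl37a*, at chr1:72711245-72711274 on the plus strand, holds no run longer than 4. The others lie on the plus strand, *Rpl38* at chr11:114668565-114668594, *Rpl13* at chr8:123102335-123102364, *Rps24* at chr14:24490663-24490692, *Rps21* at chr2:180257364-180257393 and *Rpl37* at chr15:5116598-5116627. Of the 80 members, 60 matched an entry, with 72 starts. A run of at least 6 C or T on the gene's own strand lay in 38 of these windows (52.8%), against 29.2% of the 32851 windows of all entries. A run is a description of these letters, and a window without it says only that these 30 bases do not hold it. GENCODE places some starts elsewhere, with *Rpl37a* from chr1:72711290 and *Rpl37* from chr15:5116645, both past the end of the windows shown. It places *Rpl38* from chr11:114668524, *Rpl27a* from chr7:109519147 and *Rps24* from chr14:24487125, all upstream of their windows. The GENCODE start of *Rpl15*, whose coordinates are given below, also lies upstream of its window.

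The libraries held 3354 to 10897 nuclei and 18916647 to 98366627 UMIs, with a median of 2246.5 to 7253 UMIs per nucleus, and libraries shared 7 to 44 cell barcodes with each other. Cell types are the SingleR labels deposited with the counts. The 11 labels with at least 20 nuclei in every mouse hold 98.3% of the 45473 nuclei, namely granule neurons (37532 nuclei), oligodendrocytes (OL, 1384), Bergmann glia (BG, 1243), velate astrocytes (VA, 1014), PCs (292) and 6 labels called here by their gene names. Among these 5 types, each marker of a type was highest in that type, as *Gdf10* at 140 counts per 1000000 UMIs (CPM) in BG and 16.1 in granule neurons, except *Kcnj10* of the VA list, with 85.4 CPM in VA, 99.1 in BG and 122 in OL. VA and BG were less distinct, with *Aldoc* of the VA list at 481 CPM in VA and 426 in BG. The PC list summed to more than their own list in BG (17411 against 5239 CPM) and VA (10344 against 2357), and to 58205 CPM in PCs. The nuclei labelled Endothelial_Tip.Dcn.Nnat went against their name, with 1201 CPM over 4 fibroblast-like markers and 116 CPM over 4 endothelial markers, and are called Dcn.Nnat. Pvalb-Rab3b was not the most frequent label of a cluster in any mouse. Pvalb-Chrm2 was so in SCA1 mouse 1 only. SCA1 mouse 1 and WT mouse 1 are taken as run set 1 and the other 4 mice as run set 2, which is inferred from the library numbers. The shallowest nucleus held 3890 and 3932 UMIs in run set 1 and 1000 to 1739 in run set 2.

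Ribosomal protein UMIs made up 1.46, 1.25 and 0.375% of all UMIs in SCA1 mice 1, 2 and 3, against 1.61, 0.932 and 0.348% in WT mice 1, 2 and 3. Mice are given in this order throughout. The share thus differed several-fold between mice of one genotype, while SCA1 mouse 3 and WT mouse 3 were as low as each other. The mean nucleus held 131, 70.8 and 29.6 of these UMIs for SCA1 and 151, 26.3 and 29.3 for WT, on a median of 57, 39, 21, 60, 20 and 21 of the 80 genes. No nucleus was without a ribosomal protein UMI. Mitochondrially encoded transcripts, which are made outside the nucleus, took 3.29, 1.98 and 0.630% of UMIs for SCA1 and 4.53, 1.61 and 0.740% for WT, in the same order of mice as the ribosomal protein share within each genotype. Their part in the ribosomal protein share was not tested.

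Within a mouse, the share of UMIs differed between cell types, and PCs had the lowest. In granule neurons, the small excitatory neurons that make up most cerebellar cells, it was 1.64, 1.39 and 0.405% for SCA1 and 1.76, 1.00 and 0.381% for WT. In PCs, the large neurons that are the only output of the cerebellar cortex, it was 0.480, 0.448 and 0.122% for SCA1 and 0.500, 0.249 and 0.118% for WT. PCs were thus at 0.248 to 0.323 of the granule neuron share of the same mouse. Among glia, BG had 1.30, 1.08, 0.288, 1.45, 0.591 and 0.272%, VA 1.42, 1.26, 0.354, 1.70, 0.768 and 0.318%, and OL 1.57, 1.29, 0.396, 1.77, 0.934 and 0.358%. BG and VA were below granule neurons in all 6 mice, and OL in 5 of 6.

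Each label was compared with granule neurons of the same mouse by a two-sided exact permutation test of the signs of the 6 differences, adjusted over 10 labels after Benjamini and Hochberg. Of 10 labels, 8 were lower in every mouse, each with the smallest p that 6 pairs allow, which gave an adjusted exact p of 0.0391. The mean difference was -0.776 percentage points (SD 0.427, n = 6) in PCs, -0.266 (SD 0.124) in BG and -0.126 (SD 0.0814) in VA, and between -0.569 and -0.241 in the 5 neuronal labels Slc17a6.Nrgn, Pvalb-Chrm2, Pvalb-Cadm1, Pvalb-Nefh and Pvalb-Rab3b. OL differed by -0.0439 percentage points (adjusted exact p = 0.0694, range over the 6 mice -0.100 to 0.00415) and Dcn.Nnat by -0.0461 (adjusted exact p = 0.562, -0.251 to 0.210). With only the nuclei of at least 3000 UMIs, the 8 labels were still lower, with adjusted exact p of 0.0521 to 0.104.

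**Figure D1:**
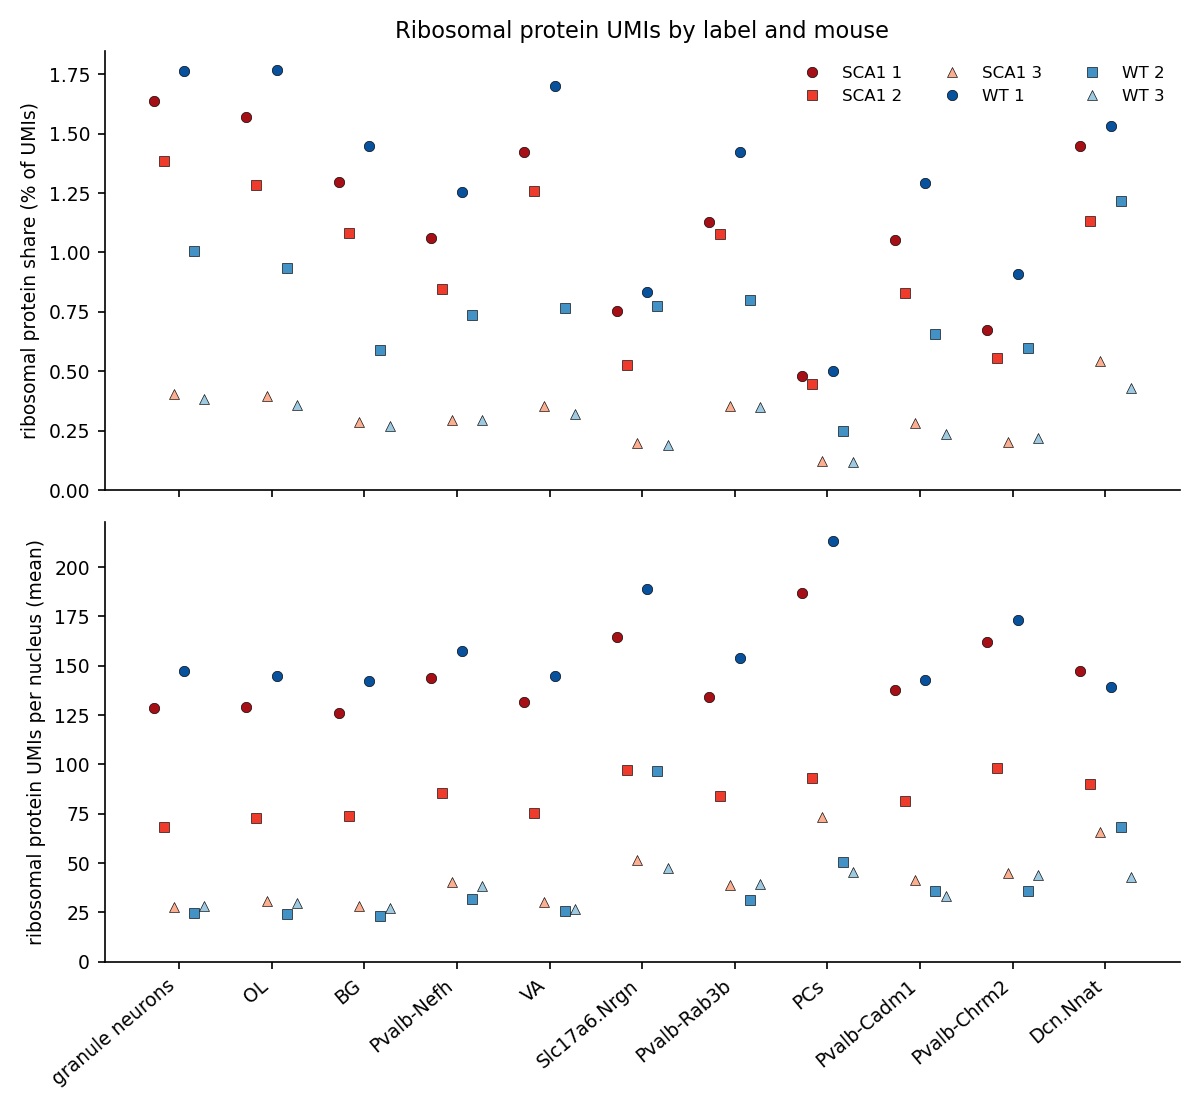
Ribosomal protein UMIs in each of 11 labels (x axis), as percent of all UMIs of the label (upper panel) and as mean UMIs per nucleus (lower panel), with 1 point per mouse (SCA1 in reds, WT in blues). The share is lowest in PCs in every mouse, at 0.118 to 0.500%, whereas the UMIs per nucleus are nearly level over granule neurons, OL, BG and VA of a mouse.

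A share depends on all other RNA of the nucleus, and the count of ribosomal protein UMIs per nucleus gave another picture. Granule neurons held 128, 68.4 and 27.5 such UMIs per nucleus for SCA1 and 148, 24.8 and 28.0 for WT. BG held 126, 73.7, 28.4, 142, 23.1 and 27.3, VA 132, 75.4, 30.4, 145, 25.8 and 26.9, and OL 129, 72.9, 31.0, 145, 24.4 and 29.7. These 4 cell types thus carried nearly the same number within a mouse. The highest of the 4 was 1.04 to 1.13 times the lowest in the 6 mice, while the mean of all UMIs per nucleus differed between them by 1.20 to 1.58 times. The difference from granule neurons was between -5.24 and 5.30 UMIs per nucleus in BG over the 6 mice (exact paired permutation p = 0.688), -2.65 to 6.98 in VA (exact p = 0.281) and -2.96 to 4.47 in OL (exact p = 0.312). The mean of granule neurons over the mice was 70.8.

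PCs held more ribosomal protein UMIs per nucleus than granule neurons in every mouse. Their nuclei held 187, 93.1 and 73.3 for SCA1 and 213, 50.4 and 45.3 for WT, a surplus of 17.3 to 65.7 with a mean of 39.6 (SD 19.9, n = 6). Slc17a6.Nrgn had a mean surplus of 36.9, Pvalb-Chrm2 of 22.2, Pvalb-Nefh of 12.1 and Pvalb-Rab3b of 9.51, in 6 of 6 mice each. The exact p in these 5 labels was again the smallest possible, but 0.0625 after adjustment over 10 labels, which misses the threshold of 0.05. The whole PC nucleus held 4.21 to 8.89 times as many UMIs as a granule neuron nucleus, against 1.36 to 2.67 times for ribosomal proteins.

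RNA known to belong to another cell type was also found in these nuclei, for *Pcp2* and in most mice *Pcp4* at a near level number per nucleus within a mouse. *Pcp2*, a PC gene, had 2.22, 1.20 and 0.325 UMIs per granule neuron nucleus for SCA1 and 4.10, 0.530 and 0.703 for WT, and between 0.325 and 4.27 over granule neurons, OL, BG and VA of all mice. PCs themselves held 30.0, 12.2, 21.7, 35.8, 16.5 and 11.6. For each *Pcp2* UMI, the 4 non-Purkinje types held 54.2 to 57.8, 52.2 to 61.2 and 77.5 to 87.6 ribosomal protein UMIs for SCA1, and 33.4 to 36.0, 40.6 to 48.7 and 39.8 to 44.1 for WT. This ratio was thus close to constant across these 4 cell types of a mouse and differed between mice. The labels called by their gene names were less even. In SCA1 mouse 3 they had 73.3 in Pvalb-Cadm1 to 360 in Pvalb-Chrm2, the latter on 0.125 *Pcp2* UMIs per nucleus. In WT mouse 1 they had 32.3 in Dcn.Nnat to 43.1 in Pvalb-Chrm2. In PCs the ratio was 3.05 to 7.66. *Pcp4* and *Calb1*, also PC genes, had 0.465 to 6.56 and 0.307 to 3.27 UMIs per nucleus outside PCs, against 9.40 to 26.5 and 16.0 to 48.3 in PCs. The myelin gene *Mbp* had 0.171 to 5.56 UMIs outside OL, against 10.8 to 30.0 in OL, and the granule neuron genes *Gabra6* and *Cbln1* 0.122 to 3.09 and 0.0811 to 1.89 outside granule neurons, against 1.88 to 5.42 and 0.306 to 2.20 in them. Over the types outside PCs, *Pcp4* was about as even as *Pcp2*, with 3.09 to 3.27 in SCA1 mouse 1 and 6.27 to 6.56 in WT mouse 1. In WT mouse 3 it was less so, with 0.794 to 1.26. *Calb1*, *Gabra6* and *Mbp* were less even in WT mouse 2, at 0.401 to 0.615, 0.122 to 0.419 and 0.171 to 0.350 outside their own types. The low ends of *Gabra6* and *Mbp* there were in PCs, with 41 nuclei. In SCA1 mouse 1 *Gabra6* was at 1.49 to 1.68. *Ttr* of the choroid plexus had 0 to 6.26 UMIs per nucleus in the 5 types, and *Enpp2*, which oligodendrocytes also express, 0.0342 to 11.4. Whether free RNA or attached cytoplasm gave the ribosomal protein UMIs was not tested.

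Deeper nuclei held more ribosomal protein UMIs, but fewer in proportion. In granule neuron nuclei of 4000 to 8000 UMIs, there were 119, 70.4, 26.4, 135, 33.1 and 25.8 ribosomal protein UMIs per nucleus in the 6 mice. In those of 16000 to 32000 UMIs, there were 191, 158, 48.1, 220.0, 177 and 52.1, where that of WT mouse 2 rests on 6 nuclei. The share meanwhile went from 1.92 to 0.952% in SCA1 mouse 1 and from 0.435 to 0.244% in WT mouse 3. Over single granule neuron nuclei, the Spearman correlation of the share with the total of UMIs was -0.765 to -0.536 in the 6 mice, with 2772 to 8779 nuclei each. These are descriptions, since the total is the denominator of the share and nuclei of a mouse share a library.

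**Figure D2:**
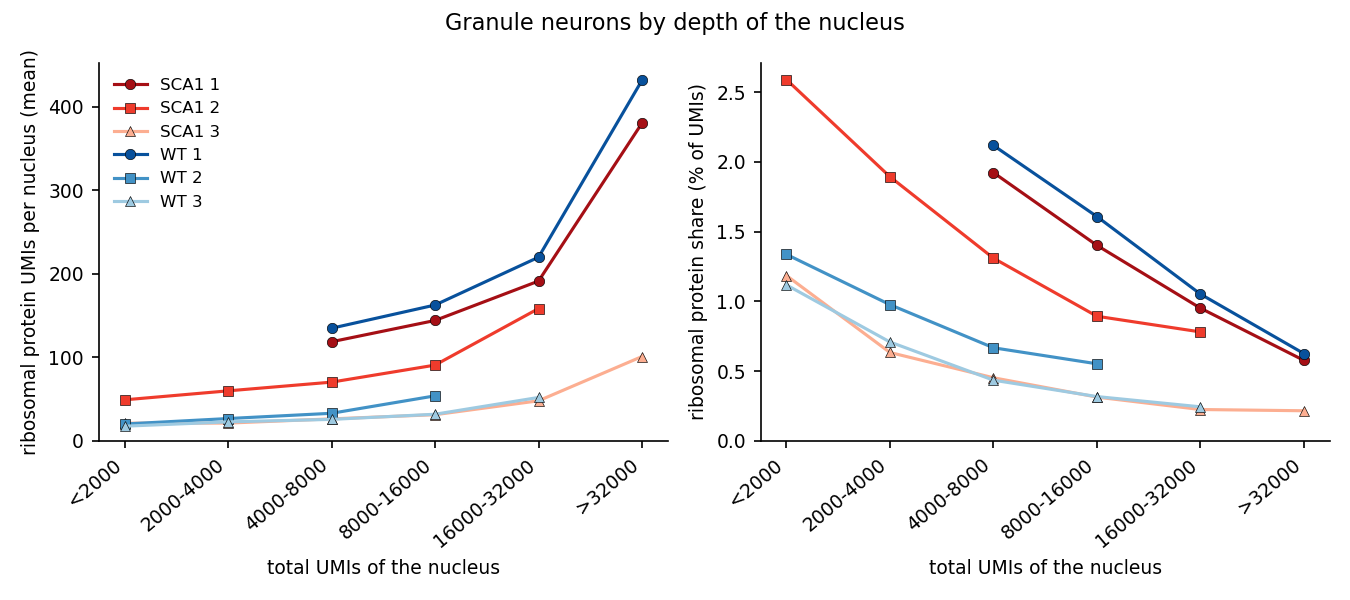
Ribosomal protein UMIs per granule neuron nucleus (left) and their percent of all UMIs (right) by the total UMIs of the nucleus, with 1 line per mouse and points for bins of at least 20 nuclei. In every mouse the count goes up with depth while the share goes down, as in SCA1 mouse 1 from 1.92 to 0.577%.

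Among deep nuclei only, PCs held no surplus over granule neurons that every mouse shared. Among nuclei of at least 16000 UMIs, PCs held 196, 119, 77.2, 223, 64.9 and 62.1 ribosomal protein UMIs, and granule neurons 207, 177, 57.5, 272, 177 and 59.6, from 17 to 66 PC and 6 to 323 granule neuron nuclei per mouse. PCs were higher in the third mouse of each genotype and lower in the other 4, although PC nuclei above this minimum were still deeper in every mouse, with means of 29954 to 64187 UMIs against 20175 to 32652. BG of 8000 to 16000 UMIs held 128, 79.9, 30.9, 146, 28.8 and 27.9, against 144, 90.8, 31.4, 163, 54.0 and 32.0 in granule neurons of that depth, where WT mouse 2 had 5 BG nuclei.

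Some clusters differed from the others of their mouse. Among granule neurons, clusters with over 5% mitochondrial UMIs held 1551 and 228 nuclei of the first and second SCA1 mouse, 5588 and 163 of the first and second WT mouse, and none of the third mice. In WT mouse 1 the 5% line cut through a gradient, between clusters at 4.91 and 5.19%. The clusters above 5% had a higher ribosomal protein share than the other granule neurons, with 2.32 against 1.53%, 2.20 against 1.35%, 2.13 against 1.35% and 1.24 against 0.997%. Per nucleus they held 137 against 127, 104 against 67.0, 144 against 155 and 34.7 against 24.5 of these UMIs, so that in WT mouse 1 the clusters with the higher share had the lower count. The third mice each had a similar cluster below the 5% line. That of SCA1 mouse 3 (268 nuclei) was at 3.27% mitochondrial, its other granule neuron clusters at 0.385 to 0.618%. Its ribosomal protein share was 0.686%, against 0.328 to 0.474%. That of WT mouse 3 (206 nuclei) was at 3.25% mitochondrial, against 0.560 to 0.809%. Its ribosomal protein share was 0.853%, against 0.313 to 0.410%. Of the labels too small for a test, Endothelial_Stalk.Flt1.Lrg1 (89 nuclei) held 392, 108, 176, 654, 188 and 41.9 ribosomal protein UMIs per nucleus, from 4 to 26 nuclei per mouse, which was above granule neurons in every mouse. Endothelial_Stalk.Flt1.Car4 (22 nuclei) held 349, 129, 44.0, 735, 69.6 and 49.0, on only 1, 6, 1, 3, 9 and 2 nuclei. Choroid_Plexus.Ttr (83), Neuron.Gad1Gad2.Lgi2 (240) and Neuron.Slc17a6.Sln (104) were also above granule neurons in all 6 mice. Microglia (125 nuclei) held 122, 75.8, 66.0, 131, 23.8 and 27.0.

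The mice of run set 1 lay above the 4 mice of run set 2 in every label but Slc17a6.Nrgn. In granule neurons the mean was 1.70% in run set 1 and 0.794% in run set 2, a difference of 0.905 percentage points (exact permutation p = 0.133, where 2 mice against 4 cannot go below 0.0667). The exact p was 0.133 to 0.200 in the 11 labels. Granule neuron nuclei of 4000 to 8000 UMIs, given above, held more ribosomal protein UMIs in both mice of run set 1 than in any of run set 2. The third mice, with median depths of 6302 and 6680.5 UMIs near the 7100 and 7253 of run set 1, had the lowest shares. Within run set 2 the granule neuron share ranged from 0.381 to 1.39%.

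No single gene dominated the sum. The 10 members with most UMIs held 23.6% of the ribosomal protein UMIs, among them *Rps29* with 3.35%, *Rpl38* with 2.54% and *Rplp1* and *Rps21* with 2.43% each, followed by *Rpl13*, *Rpl37*, *Rps24*, *Rpl37a* and *Rpl27a* with 2.26 to 1.90%. Large-subunit genes held 59.8%. *Rps29*, a small zinc-binding protein of the small subunit, had 4.35, 2.18, 0.681, 5.30, 0.748 and 0.820 UMIs per granule neuron nucleus and 5.05, 2.56, 1.21, 6.74, 1.15 and 1.00 per PC nucleus. UMIs were counted per transcript and not divided by length, so that this is an order of UMIs captured and not of transcript levels per length. The genes lie on 19 chromosomes, 19 of them overlap an annotated gene on the opposite strand and 5 one on their own strand, and whether counting used strand is not given in the sources used here.

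Members picked for their roles went across mice much the same way. *Rplp0*, the base of the stalk that recruits elongation factors, had 0.939, 0.471, 0.172, 1.05, 0.160 and 0.181 UMIs per granule neuron nucleus, and its partner *Rplp2* 1.59, 0.789, 0.302, 1.81, 0.279 and 0.317. *Rpsa*, also known as the laminin receptor, had 1.75, 0.926, 0.349, 1.96, 0.292 and 0.357. *Rps6*, the target of S6 kinase, had 1.11, 0.553, 0.258, 1.27, 0.208 and 0.251. In each of these, SCA1 mouse 3, WT mouse 2 and WT mouse 3 lay together at the bottom. *Rpl22*, the protein tagged in RiboTag mice, had 0.625, 0.336, 0.186, 0.701, 0.122 and 0.169, and *Rps19*, mutated in Diamond-Blackfan anemia, 1.42, 0.707, 0.282, 1.66, 0.280 and 0.293. *Rpl38*, which is needed for normal patterning of the skeleton, had 3.33, 1.67, 0.555, 3.91, 0.552 and 0.627, and X-linked *Rps4x* 1.01, 0.589, 0.202, 1.16, 0.154 and 0.196. The makeup of the sum was closer to that of granule neurons in glia than in PCs, with a Pearson correlation over the 80 members to granule neurons of the same mouse of 0.628 to 0.971 in PCs, while it was 0.922 to 0.994 in OL and at least 0.880 and 0.884 in BG and VA. It was 0.930 to 0.997 between granule neurons of different mice. The highest PC value, in WT mouse 1, rests on 16206 UMIs, and the lowest, in WT mouse 3, on 1314. Pvalb-Chrm2 and Pvalb-Cadm1 of WT mouse 3 had 0.780 and 0.817 on 922 and 963 UMIs. The part of counting error in these correlations was not tested.

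Genes with muscle- or testis-linked paralogs were counted apart. *Rpl10l* had 0 UMIs, and *Rpl39l*, like it best known from testis, had 4. *Rps27l*, a paralog of *Rps27* that p53 induces, had 5804 against 60090 for *Rps27*. *Rpl3l*, known as the striated muscle form of *Rpl3*, had 131 UMIs in all, and its pattern over cell types was picked after its values were seen. It had 34 UMIs in 1014 VA nuclei (18, 2, 7, 5, 2 and 0 in the 6 mice) and 11 in 292 PC nuclei, but 57 in 37532 granule neuron nuclei and 3 in 1243 BG nuclei. That is 33.5, 37.7, 1.52 and 2.41 UMIs per 1000 nuclei, and VA and PC values rest on 5 and 4 of 6 mice. Pvalb-Chrm2 had 15.2, Pvalb-Cadm1 13.8 and Slc17a6.Nrgn 6.61, on 4, 4 and 5 UMIs. Reads of near-identical copies may be split, and the copies listed by the authors had 1462 (*Rpl9-ps6*), 1438 (*Rps27rt*), 879 (*Rpl10-ps3*) and 179 UMIs (*Rpl36a-ps1*).

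In PCs, 68 of 80 members had more UMIs per nucleus than in granule neurons in all 6 mice, 8 more in 5 mice and 2 in 4. This count is not particular to ribosomal proteins, since the same held for 58.9% of the 18292 genes with at least 60 UMIs, 78 members among them, and for 78.5% of the 11948 genes with at least 1000 UMIs, of which 77 are members and 68 of these were higher. The surplus was uneven between members. *Rpl15*, a large-subunit protein, had the largest mean surplus of the 80, 1.66 UMIs per nucleus (SD 0.631, n = 6), before *Rpl36* with 0.985, *Rpl27a* with 0.980 and *Rps13* with 0.932. It came first in 4 of 6 mice, and behind *Rpl13* in SCA1 mouse 1.

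**Figure D3:**
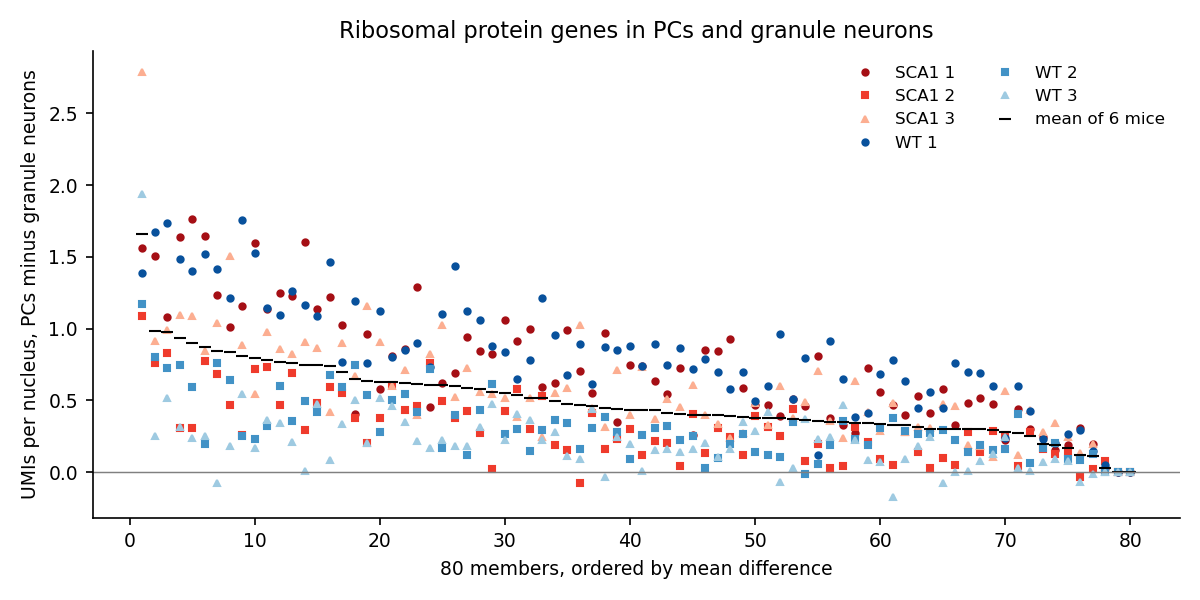
Difference in mean UMIs per nucleus between PCs and granule neurons of the same mouse for the 80 members, ordered on the x axis by the mean of 6 mice (dash), with 1 point per mouse. The gene at position 1 is *Rpl15*, with a mean of 1.66, and most points lie above 0.

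*Rpl15* lies at chr14:18267823-18271391 on the minus strand (mm10) and was singled out after its values were seen, so that its pattern is given with no test. It is the 60th of 80 by UMIs, with 0.862% of all ribosomal protein UMIs. Granule neuron nuclei held 1.02, 0.641, 0.247, 1.22, 0.216 and 0.270 *Rpl15* UMIs, and PC nuclei 2.58, 1.73, 3.03, 2.61, 1.39 and 2.21. The granule neuron values followed those of all ribosomal proteins over the mice, whereas PC values did not, with the highest in SCA1 mouse 3, one of the mice with the fewest ribosomal protein UMIs elsewhere. *Rpl15* thus made up 1.38, 1.86, 4.14, 1.22, 2.76 and 4.87% of ribosomal protein UMIs in PCs, against 0.796 to 0.963% in granule neurons.

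The higher part of *Rpl15* was also found among deep nuclei. In nuclei of at least 16000 UMIs it made up 1.41, 2.45, 4.12, 1.30, 3.40 and 5.97% of ribosomal protein UMIs in PCs, and 0.720, 0.997, 1.08, 0.787, 1.03 and 1.28% in granule neurons, with 53 to 192 *Rpl15* UMIs per mouse in PCs. Its level as CPM of all UMIs, scaled with edgeR's TMM factors, was 59.4, 76.1, 51.4, 60.3, 72.8 and 65.9 in PCs, the most even of the 77 members tested there. The highest mouse was 1.48 times the lowest for *Rpl15*, 2.11 times for *Rpl4* and 2.58 times for *Rpl5*, against a median of 4.55 times over the 77. For *Rps29* the PC values ran from 20.4 CPM in SCA1 mouse 3 to 156 in WT mouse 1. Apart from PCs, *Rpl15* was above granule neurons in all 6 mice in Slc17a6.Nrgn, by 0.512 to 0.799 UMIs per nucleus, in Pvalb-Chrm2, by 0.284 to 0.628, and by less in Pvalb-Nefh (0.0247 to 0.326), Pvalb-Rab3b (0.0175 to 0.150) and Dcn.Nnat (0.0150 to 0.488). In OL, BG and VA the difference lay between -0.0884 and 0.138 and had no common direction. *Nkiras1*, on the opposite strand, overlaps the start of *Rpl15*, and its own UMIs per nucleus were 1.63, 1.29, 1.93, 1.72, 0.829 and 0.759 in PCs and 0.0896 to 0.440 in granule neurons. Reads of the pair cannot be told apart without strand.

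**Figure D4:**
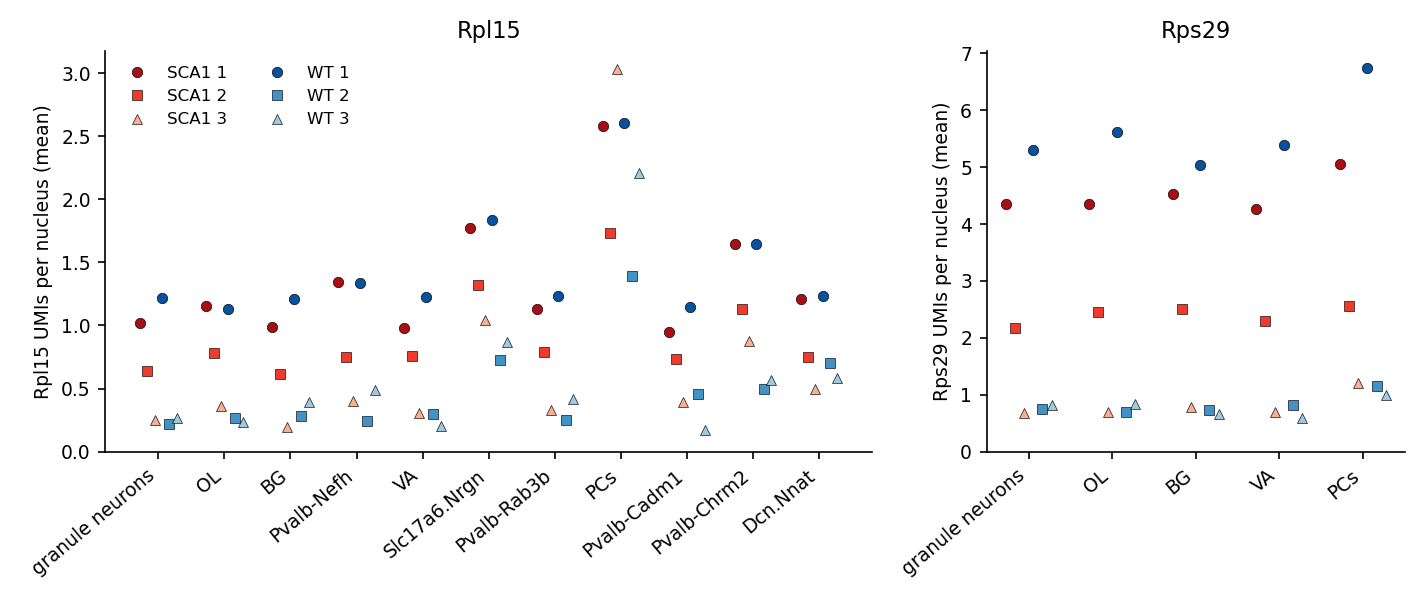
Mean UMIs per nucleus of *Rpl15* (left, 11 labels) and of *Rps29* (right, 5 labels), with 1 point per mouse. *Rpl15* in PCs is at 1.39 to 3.03 and above granule neurons in every mouse by at least 1.09, while for *Rps29* WT mouse 1, SCA1 mouse 1 and SCA1 mouse 2 lead in this order in each of the 5 labels.

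SCA1 and WT mice were then compared to ask whether the PC transgene came with a change of these genes in PCs or in the cells around them. The ribosomal protein share did not separate the genotypes in any label. In granule neurons the mean was 1.14% (SD 0.650, n = 3) in SCA1 mice and 1.05% (SD 0.691, n = 3) in WT mice, with an exact permutation p of 0.9, and in PCs 0.350% (SD 0.198) and 0.289% (SD 0.194), also with an exact p of 0.9. The SCA1 mean was the higher in 5 of 11 labels, and no exact p was below 0.6, where 3 mice against 3 cannot go below 0.1. In granule neurons SCA1 minus WT was -0.127 percentage points in run set 1, which is 1 mouse against 1, and 0.202 in run set 2 (exact permutation p = 0.667, where 2 against 2 cannot go below 0.333). It was -0.0203 and 0.101 in PCs, -0.150 and 0.254 in BG, -0.275 and 0.263 in VA and -0.195 and 0.194 in OL, while Slc17a6.Nrgn (-0.0775 and -0.120) and Pvalb-Chrm2 (-0.237 and -0.0304) were below 0 in both.

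Gene by gene, edgeR's quasi-likelihood test on UMIs summed per mouse and label, with genotype and run set as terms, called no member at an adjusted p of 0.05 in any of 11 labels. Between 76 and 77 of the 80 members passed the filter on low counts in a label. At an unadjusted p under 0.05 there were 0 or 1 members per label, and DESeq2 also called 0, with 0 or 1 at an unadjusted p under 0.05. Over all genes, 653 of 9821 were under this unadjusted p by edgeR in PCs, 313 of 17656 in granule neurons, 190 of 11093 in BG, 107 of 10548 in VA and 88 of 10900 in OL. Over all genes edgeR's adjusted calls were rare, with 0.00566% of 17656 genes in granule neurons, 0.00917% of 10900 in OL and 0% in the other 9 labels. Other settings called more genes, none of them a member, with 66 by DESeq2 and 172 with a replicate block of 9821 in PCs, and 14 by DESeq2 of 17656 in granule neurons. Equally, no member had all SCA1 mice on one side of all WT mice in any of the 5 named types, where 3.07% of genes in granule neurons, 3.53% in OL, 4.69% in BG, 4.63% in VA and 10.2% in PCs did.

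The median of the members was above 0 in the 5 named types, but not in every label, and it did not outlast leaving out 1 mouse. The median log2 fold change, SCA1 over WT, was 0.16 in granule neurons (75 of 77 above 0), 0.15 in PCs (61 of 77), 0.32 in BG (74), 0.22 in VA (73) and 0.18 in OL (66), beside medians of all genes tested between -0.01 and 0.02. In the other labels it ran from -0.20 in Pvalb-Chrm2 (18 of 76 above 0) and -0.11 in Slc17a6.Nrgn (18 of 77) over -0.03 in Dcn.Nnat to 0.09 in Pvalb-Rab3b. With no run set term, the medians of granule neurons, PCs, BG, VA and OL were 0.09, 0.07, 0.16, 0.05 and 0.04. Without SCA1 mouse 2, whose share was the highest of the SCA1 mice in run set 2, these medians were -0.42, -0.40, -0.30, -0.35 and -0.35. Without WT mouse 3 they were at or below 0 too, down to -0.17 in OL. Members move together over the mice, so that the number above 0 is not a number of independent genes.

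**Figure D5:**
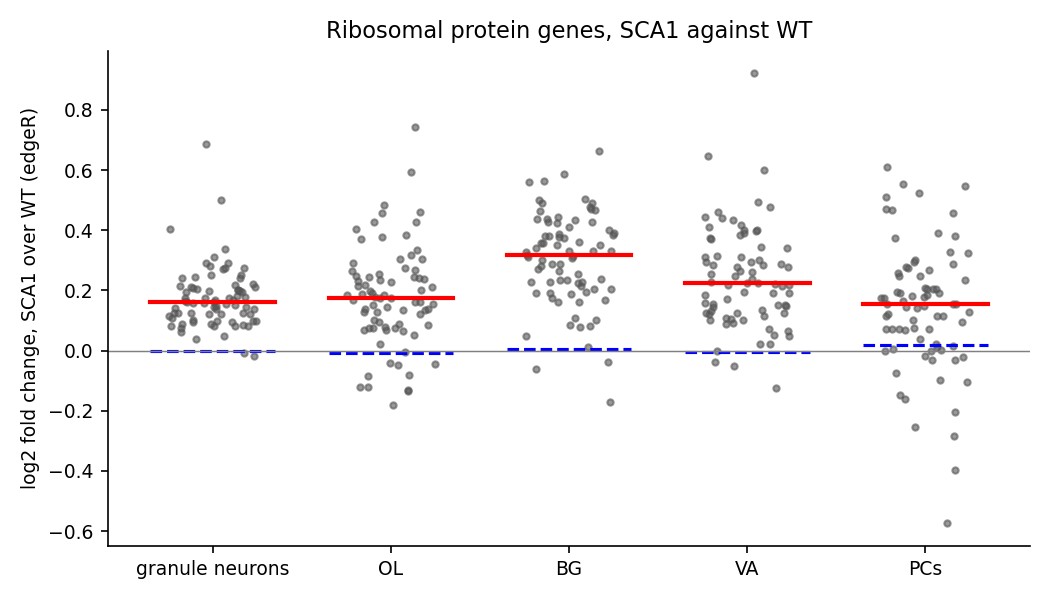
Log2 fold change of the 77 members tested, SCA1 over WT, by edgeR in 5 cell types, where each grey point is 1 gene, the red line is the median of the members and the blue dashed line the median of all genes tested. Medians of the members are 0.15 to 0.32, and no point passed an adjusted p of 0.05.

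The members at the ends of this range mostly differed between cell types, and *Rpl35*, *Rpl10* and *Rps14* came up in more than 1. *Rpl35*, of the exit side of the large subunit, had the largest positive log2 fold change in granule neurons with 0.69 (SE 0.55), from 123, 132, 31.2, 112, 57.8 and 25.4 CPM, and also in BG (0.66, SE 0.50) and OL (0.74, SE 0.47). In PCs it had 0.55 (SE 0.62), second to *Rps6* with 0.61 (SE 0.32, edgeR adjusted p = 0.831), whose CPM were 44.2, 33.0, 16.4, 32.3, 14.0 and 14.4. The SCA1 and WT mice overlapped for each of these genes. *Rpl10*, the last protein to join the large subunit, had 0.92 (SE 0.41) in VA, the only unadjusted p under 0.05 among the 5 types (0.0430, edgeR adjusted p = 1.00), with 92.3, 118, 40.3, 78.9, 28.8 and 25.8 CPM, and 0.50 (SE 0.42) in granule neurons. *Rpsa* was also at the upper end in BG (0.59, SE 0.46).

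At the lower end, *Rps14*, lost in the 5q- syndrome, had -0.40 (SE 0.40) in PCs, with an edgeR adjusted p of 0.999. The lowest members of granule neurons, *Rps18* and *Rps23*, were at -0.02 (SE 0.40) and -0.01 (SE 0.47). In BG they were *Rpl15* (-0.17, SE 0.42) and *Rpl7* (-0.06, SE 0.42), in VA *Rplp2* (-0.12, SE 0.38) and *Rps2* (-0.05, SE 0.41), and in OL *Rps14* (-0.18, SE 0.35) and *Rpl22* (-0.13, SE 0.37). None of these passed the test. *Rpl15* in PCs had -0.10 (SE 0.23, edgeR adjusted p = 0.999). The 18 members named for their rank or role and tested in every type lay between -0.25 and 0.61 in PCs and 0.08 and 0.41 in granule neurons.

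Genes around the ribosome were set beside the members. The 7 ribosome genes outside the symbol rule, such as *Fau*, *Rps3a1*, *Rpl22l1* and *Rack1*, went as the members did, with a PC to granule neuron ratio of UMIs per nucleus of 1.50 (median of 6 mice, 1.29 to 2.69) against 1.54 (1.36 to 2.67) for the 80. The ratio was 2.88 (2.16 to 6.08) for 32 translation factors, 3.17 (2.60 to 6.08) for 78 mitochondrial ribosomal proteins, which are made from nuclear genes for the other ribosome of the cell, and 3.94 (2.86 to 6.48) for 24 genes of ribosome biogenesis and RNA polymerase I. It was 4.33 (1.30 to 22.9) for 13 mitochondrially encoded genes and 20.5 (8.53 to 25.3) for 8 nuclear-retained RNAs such as *Malat1*, beside 5.16 (4.21 to 8.89) for all UMIs. Cytosolic ribosomal proteins thus had the ratio nearest to 1 of these lists apart from the 7 further ribosome genes. Between SCA1 and WT, edgeR called no gene of these 6 lists in any of the 5 types, with 0 or 1 genes per list at an unadjusted p under 0.05, beside the counts over all genes given above. The median log2 fold change in PCs was 0.08, 0.03, 0.07, -0.04, -0.12 and 0.25 in the order just given.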

How the data were processed

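Single nuclei of 6 cerebella, 3 SCA1 and 3 WT, were measured with 1 library per mouse. The deposited values are UMI counts per gene and nucleus, which the authors made with Cell Ranger (versions 4.0.0, 5.0.1 and 6.0.1 in the submitters' processing notes) on mm10 with human *ATXN1* added and introns included, removed debris from with DIEM and labelled with SingleR against a DropViz reference (R 4.1.0 and Seurat 4.0.4 in the same notes). Whether strand was used in counting is not given in the sources used here. Debris removal and the depth kept per library bear on every share and count per nucleus.

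Counts were summed per mouse and label, since nuclei of 1 mouse are not replicates, and labels with at least 20 nuclei in every mouse were tested. Shares are ribosomal protein UMIs as percent of all UMIs. Labels were compared with granule neurons by exact tests of paired signs, and genotypes and run sets by exact permutation tests over mice. Gene tests used edgeR 4.0.16 (R 4.3.3, TMM factors, filterByExpr with a minimum count of 10 and total of 15, quasi-likelihood test, genotype and run set as terms, Benjamini-Hochberg over all genes tested, threshold 0.05) and DESeq2 1.42.0 as an alternative. The edgeR test and the exact tests were tried on simulated data, and DESeq2 was not. The counts simulated for edgeR held no effect of run set. Tables and figures were made with Python 3.11.15, pandas 2.3.3, scipy 1.17.1 and matplotlib 3.10.9.

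Libraries held 18916647 to 98366627 UMIs, and counts on few UMIs carry counting error. No doublet caller was run. Coordinates are those of GENCODE vM21 (mm10), and start windows those of RefSeq. Named members were the 10 with most UMIs, the stalk genes, *Rpsa*, paralogs ending in l or x, *Rps6*, *Rpl22*, *Rpl38*, *Rps19* and, in 5 cell types, the 2 highest and 2 lowest fold changes, of which some genes are not reported here. The members, comparison lists and rules were chosen with earlier results of these data known. Alternatives were other labels, depths, denominators, scalings, filters, terms and leaving out each mouse.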

Additional observations from a re-analysis of the deposited data

How the results depend on the processing

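Keeping only nuclei of at least 3000 UMIs moved the share against granule neurons to -0.225 percentage points in BG, -0.300 in Pvalb-Nefh, -0.0942 in VA, -0.494 in Slc17a6.Nrgn, -0.191 in Pvalb-Rab3b, -0.722 in PCs, -0.317 in Pvalb-Cadm1 and -0.519 in Pvalb-Chrm2, none then at an adjusted exact p of 0.05. Without mitochondrial genes and *Malat1* in the denominator, Dcn.Nnat was at 0.00494. With 1 mouse left out, 5 pairs cannot go below an exact p of 0.0625, and the differences ranged from -0.297 to -0.236 in BG, -0.400 to -0.303 in Pvalb-Nefh, -0.141 to -0.103 in VA, -0.622 to -0.474 in Slc17a6.Nrgn, -0.283 to -0.188 in Pvalb-Rab3b, -0.879 to -0.679 in PCs, -0.421 to -0.328 in Pvalb-Cadm1 and -0.651 to -0.491 in Pvalb-Chrm2. Counts per nucleus in BG ranged from -1.84 to 0.265.

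SCA1 minus WT shares with 1 mouse left out ranged from -0.241 to 0.461 in granule neurons, -0.130 to 0.458 in BG, -0.266 to 0.438 in OL, -0.0247 to 0.175 in PCs and -0.221 to 0.469 in VA. The medians of the members ranged from -0.42 to 0.50 in granule neurons, -0.30 to 0.61 in BG, -0.35 to 0.49 in OL, -0.40 to 0.44 in PCs and -0.35 to 0.55 in VA. Log2 fold changes that changed sign ranged, in granule neurons, from -0.0765 to 0.81 (*Rpl10*), -0.18 to 1.03 (*Rpl35*), -0.46 to 0.36 (*Rps18*) and -0.53 to 0.48 (*Rps23*). In BG they ranged from -0.72 to 0.17 (*Rpl15*), -0.0886 to 1.01 (*Rpl35*), -0.63 to 0.24 (*Rpl7*) and -0.12 to 1.11 (*Rpsa*). In VA they ranged from -0.59 to 0.14 (*Rplp2*) and -0.58 to 0.23 (*Rps2*). In OL they ranged from -0.46 to 0.32 (*Rpl22*) and -0.53 to 0.12 (*Rps14*), and in PCs from -0.34 to 1.27 (*Rpl35*).

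With a replicate block the medians of the members in granule neurons, PCs, BG, VA and OL were 0.10, 0.07, 0.17, 0.09 and 0.07, and with nuclei of at least 3000 UMIs 0.32 in granule neurons and 0.30 in OL. Scaling by library size alone put *Rps18* at 0.0192 and *Rps23* at 0.0302 in granule neurons and *Rpl7* at 0.00400 in BG, and moved the median of all genes in PCs to 0.20 and that of the members there to 0.35. Nuclei of at least 3000 UMIs put *Rps18* at 0.11, *Rps23* at 0.21, *Rplp2* in VA at 0.0575 and *Rpl22* in OL at 0.03132. The cause of these moves was not tested. No member was called under any alternative. Over all genes in PCs, edgeR called 0, against 66 with DESeq2, 223 with no filter, 8 with RLE factors and 172 with a replicate block. In granule neurons edgeR called 1, against 14 with DESeq2, 2 with no filter, 0 with no run set term and 6 with a replicate block. Consensus labels keep the nuclei whose label is the most frequent one of their cluster. They could not be fitted in Slc17a6.Nrgn, Pvalb-Rab3b, Pvalb-Chrm2 and Dcn.Nnat, where at least 1 mouse had no nuclei left. Pvalb-Rab3b had none left in any mouse, and Pvalb-Chrm2 kept nuclei (46.9%) in SCA1 mouse 1 only.

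Same-numbered mice share a number in the labels. Their deviations from the group means correlated above 0.1 in every pair in 5 of 11 labels (0.0407 to 0.867 over all pairs). With the replicate block, the granule neuron share differed by 0.0926 percentage points (exact p = 0.75), and no member was called.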
